A study of Drosophila melanogaster with 6 samples.

Results

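The genes described here encode secreted and lysosomal hydrolases of the Drosophila melanogaster larval gut: Jonah serine proteases, trypsins, Ser serine proteases, an amylase-related protein, lipases, alpha-mannosidases, aspartic proteases and lysozymes. They were taken by their symbols in the array's annotation, with maltases left out and with the probe set of the highest mean where a gene has several. The rule found 43 genes among 11982 named genes: 13 Jonah proteases, 9 trypsins, 4 Ser proteases, 1 amylase-related gene, 5 lipases, 6 alpha-mannosidases, 2 aspartic proteases and 3 lysozymes. Each was read by a single probe set. A further probe set carries the symbols of both amylase genes, Amy-p and Amy-d, and is given apart, because it cannot say which gene it reads. Another 9 genes with matching symbols (LysB, LysC, LysD, LysE, deltaTry, gammaTry, Jon99Cii, Jon99Ciii and Jon99Fii) are not analysed here.

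RNA came from the proventriculus, the valve-like organ between foregut and midgut, of instar 3 larvae, and was hybridised to 6 Affymetrix Drosophila 2.0 arrays. All larvae were of the hairy-gal4 UAS-neoGFP strain, in which Gal4 made under the control of the hairy gene switches on a transgene labelled neoGFP, so the unchallenged larvae carried it too. The groups were unchallenged larvae (2 arrays), larvae challenged with G418, an aminoglycoside toxic to eukaryotic cells (2 arrays), and F3 larvae, themselves unchallenged, either without past exposure (1 array) or with past exposure on F1 (1 array). The labels give no age beyond the instar, no G418 dose and no number of animals behind an array, and do not say whether replicates were separate dissections, so p-values measure only the spread between arrays.

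Food proteins, starch and fats are broken down in the fly gut by enzymes that enterocytes of the midgut secrete into the lumen. Trypsins cut proteins after lysine or arginine, Jonah proteases are chymotrypsin- and elastase-like relatives, lipases release fatty acids, and lysozymes, which in most animals defend against bacteria, serve in flies largely to digest them. The proventriculus has an outer wall continuous with the anterior midgut, so its RNA can hold midgut transcripts, and a dissected organ can carry a rim of adjoining midgut.

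The values are log2 expression values made by RMA, a method that corrects background, puts the arrays on one scale and gives 1 value per probe set. Array medians lay between 4.92 and 5.03. The arrays differed in markers of other tissues, given here as the log2 of the summed linear signal of each list, a scale on which no marker can be at 0. The 11 salivary gland markers measured of 11 listed stood at 11.22 and 15.22 on unchallenged replicates 1 and 2, at 16.88 and 15.90 on G418 replicates 1 and 2, and at 10.82 (F3 without past exposure) and 10.87 (F3 with it). The 5 fat body markers measured of 8 stood at 15.89 and 14.56, at 15.19 and 15.60, and at 9.81 and 13.57 in the same order. The 9 nervous tissue markers of 10 stood at 10.52 on unchallenged replicate 2 and between 7.69 and 7.92 elsewhere. Of 8 listed proventriculus and foregut markers 7 were measured, and their summed signal lay between 12.35 and 13.53. Taken singly, each of the 7 was at 7.43 or above on every array, where the median over all probe sets was 4.98. The labelled tissue's markers were thus present on every array. With G418 1 of the 7 stood higher and 6 lower, with a median log2 change of -0.50. Of 6 listed enterocyte markers 2 were measured, betaTry and lambdaTry, both of them genes of the present set, so the midgut origin was not checked independently. In such bulk RNA, fewer cells of a type and less RNA per cell cannot be told apart.

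Digestive enzyme RNAs were on every array, in a few members at very high signal. The 9 members with a mean above 13 were Jon25Bi, Jon25Bii, Jon65Aiii, Jon65Aiv, Jon74E, alphaTry, betaTry, epsilonTry and the lysosomal aspartic protease gene cathD, and their values lay between 11.49 and 14.73. At this end of the scale probe signal approaches its ceiling, so differences there may be compressed. At the other end, 15 members had a mean below 4.98, the median over all probe sets, among them all 4 Ser proteases, Amyrel and lambdaTry. Of these 15 dim members 14 varied by less than 1 on the log2 scale over the 6 arrays, and the other was Jon99Fi. The signal of a probe set depends on its probes as well as on its RNA, so these levels do not order the genes by RNA amount.

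**Figure D1:**
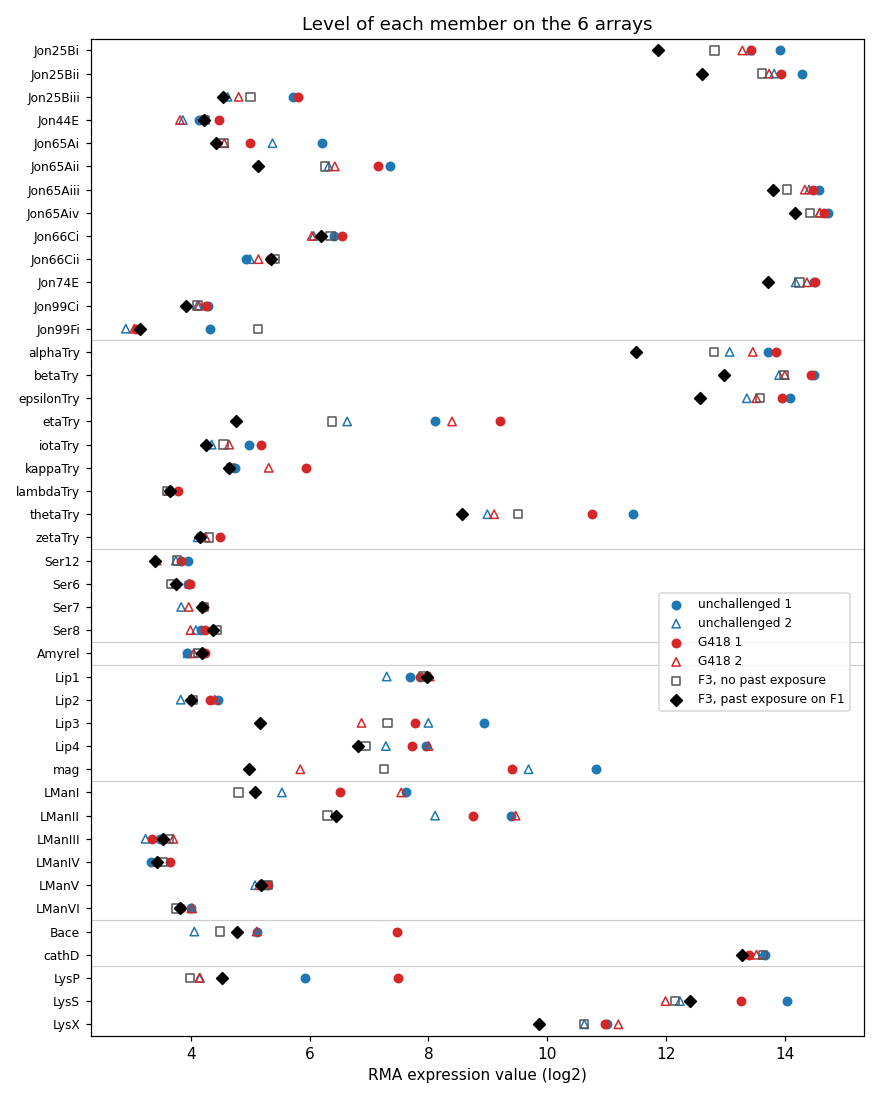
Expression value (log2, RMA) of the 43 members on each array, with families separated by grey lines. Circles are first replicates and triangles second replicates of the unchallenged (blue) and G418 (red) groups, and squares and diamonds are F3 without and F3 with past exposure; the black diamond lies lowest for 22 members, among them alphaTry, betaTry, Jon25Bi and mag.

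The first comparison asked how G418 altered these RNAs. None of the 43 members passed limma's test of 2 arrays against 2, where 0 of 18769 probe sets were called (0%). At an unadjusted p under 0.05 there were 2 members, kappaTry and Jon65Ai, against 3.54% of all probe sets. With G418, 27 members stood higher in the mean and 16 lower, where 47.7% of all genes stood higher, and the median log2 change was 0.09 against -0.02 over all genes. Both G418 arrays lay above both unchallenged arrays for 7 members (16.3%, against 18.3% of all genes) and below them for 4 (9.3%, against 20.1%). The first share is near the background and the second below it. At or beyond 2-fold in the mean were 5 members (Jon65Ai, etaTry, Lip3, mag and Bace), where 5.18% of all genes were.

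These counts depended on single arrays. Without unchallenged replicate 2, on which nervous tissue markers were high, 13 members stood higher and the median was -0.09. Without G418 replicate 1 there were 18 and the median was -0.05. Without unchallenged replicate 1 there were 35 and the median was 0.26, and without G418 replicate 2 there were 30 and the median was 0.16. With 2 arrays a group, the smallest two-sided p of an exact permutation test is 0.333. Leaving out 1 array turned the sign of 26 of the 43 changes.

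**Figure D2:**
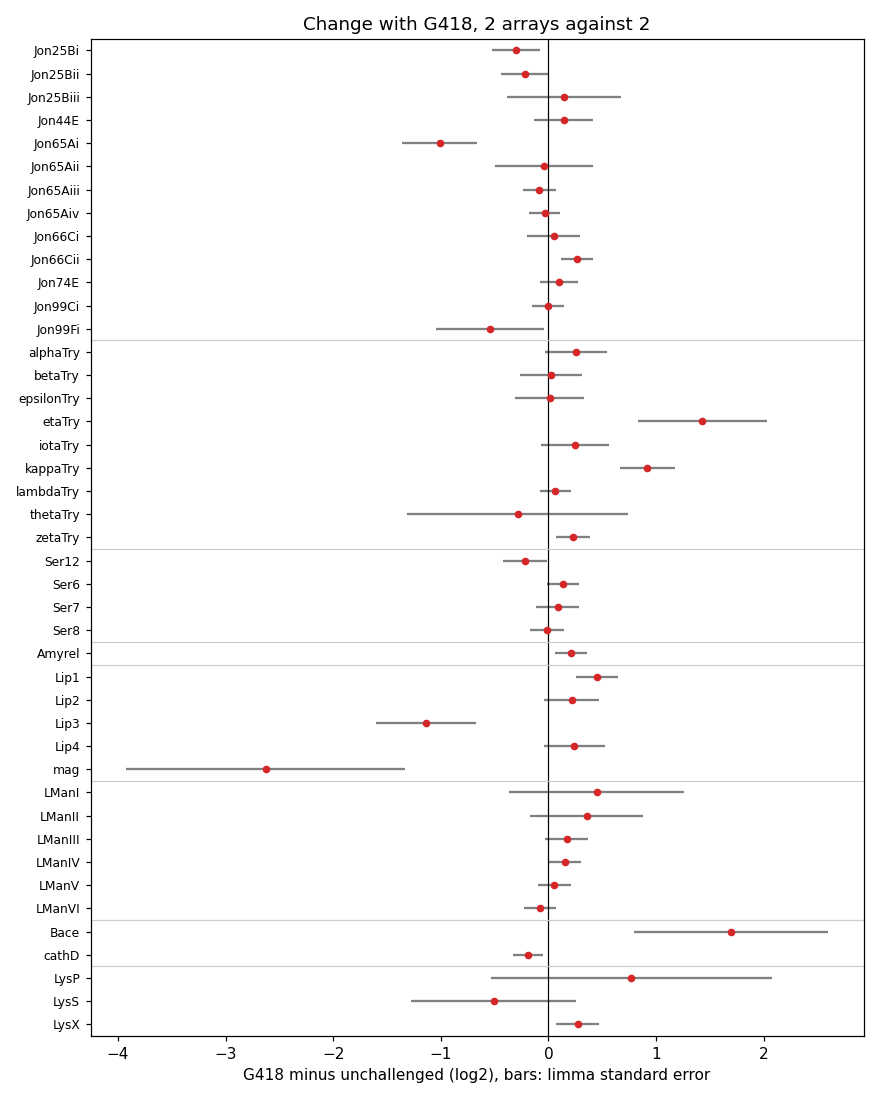
Change with G418 (log2, mean of 2 G418 arrays minus mean of 2 unchallenged arrays) for each member, with limma's standard error as bars. The widest bars belong to LysP, mag and thetaTry, and mag lies farthest from 0 at -2.63.

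Among lipases, 2 members were low on the G418 arrays. mag (magro), a lipase secreted into the gut lumen that cleaves triacylglycerols and cholesterol esters, was at 10.82 and 9.68 on unchallenged replicates 1 and 2, at 9.40 and 5.84 on G418 replicates 1 and 2, and in F3 at 7.26 without and 4.98 with past exposure. Both G418 arrays lay below both unchallenged arrays, and most of the gap came from G418 replicate 2. The means were 10.25 ± 0.81 and 7.62 ± 2.52 (SD, n = 2 arrays each), a 6.19-fold lower level with a log2 change of -2.63 ± 1.30 (SE, limma adjusted p = 0.788). Without G418 replicate 2 the change was -0.85, and without G418 replicate 1 it was -4.41.

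Lip3, a lipase gene known to be induced by starvation, was at 8.93 and 7.999 on the unchallenged arrays, at 7.78 and 6.87 on the G418 arrays and at 7.31 and 5.16 on the F3 arrays. Here too the groups did not overlap, and within each group the first replicate was the higher. The change was -1.14 ± 0.47 (SE), a 2.20-fold lower level (limma adjusted p = 0.788), and it lay between -1.60 and -0.67 with 1 array left out. Lip1, of the acid lipase family, went the other way by a small step, from 7.69 and 7.30 to 7.86 and 8.02, with 7.90 and 7.98 on the F3 arrays. Its change of 0.45 ± 0.20 (SE) had a limma adjusted p of 0.788. Lip4 and Lip2 changed by 0.24 and 0.22, with overlapping groups.

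Among trypsins, 8 of 9 stood higher with G418 (47.7% of all genes), with a median of 0.23. That count was 4 without unchallenged replicate 2 and also 4 without G418 replicate 1. It was 9 without unchallenged replicate 1 and also 9 without G418 replicate 2. Both G418 arrays lay above both unchallenged arrays for 3 trypsins, etaTry, kappaTry and zetaTry (18.3% of all genes). etaTry was at 8.11 and 6.63 on the unchallenged arrays, at 9.21 and 8.40 on the G418 arrays and at 6.38 and 4.76 on the F3 arrays. Its G418 replicates were the highest of the 6 arrays, and the change was 1.43 ± 0.60 (SE), a 2.70-fold higher level (limma adjusted p = 0.788), which was 0.69 without unchallenged replicate 2. kappaTry was at 4.75 and 4.67, at 5.94 and 5.31 and at 4.68 and 4.64 in the same order. Only the G418 arrays left the band of 4.64 to 4.75, and the change was 0.92 ± 0.25 (SE; unadjusted p = 0.0212, limma adjusted p = 0.788).

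betaTry was at 14.50 and 13.90, at 14.44 and 14.00 and at 13.99 and 12.97. The replicates of each group differed by more than the group means, which were 0.02 apart. thetaTry varied more between replicates than between groups, with 11.44 and 8.99 on the unchallenged arrays and 10.76 and 9.11 on the G418 arrays.

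The 9 measured trypsin genes lie in a row on chromosome arm 2R in the order lambdaTry, kappaTry, zetaTry, etaTry, thetaTry, alphaTry, epsilonTry, betaTry and iotaTry, with gammaTry and deltaTry between betaTry and iotaTry. Neighbours did not share a pattern over the whole row. lambdaTry and zetaTry ranged over 0.18 and 0.38 across the 6 arrays, etaTry over 4.44 and thetaTry over 2.89. These genes resemble each other in sequence, as do the neighbouring Jonah and lysozyme genes, so a probe set may also take up RNA of a close copy.

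**Figure D3:**
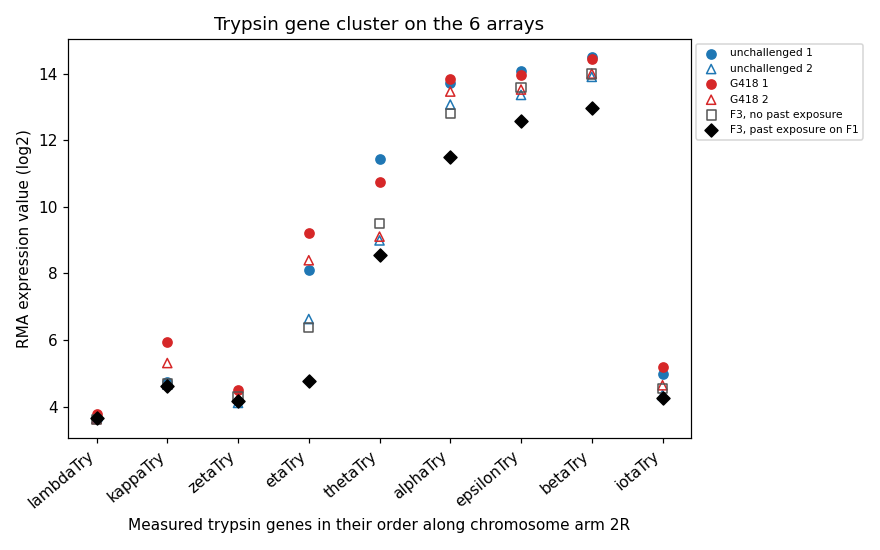
Expression value (log2, RMA) of the 9 measured trypsin genes on each array, in gene order along chromosome arm 2R (not to distance). The black diamond, the F3 array with past exposure, is the lowest point for 7 of the 9 genes, and the red points of etaTry and kappaTry lie above all others.

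Among the 13 Jonah proteases, 5 stood higher with G418 and 8 lower, with a median of -0.03. The count of higher members was 10 without unchallenged replicate 1, 8 without G418 replicate 2, 2 without unchallenged replicate 2 and also 2 without G418 replicate 1. Jon65Ai was at 6.21 and 5.38 on the unchallenged arrays, at 4.999 and 4.57 on the G418 arrays and at 4.55 and 4.42 on the F3 arrays. The unchallenged arrays were thus the highest pair, and the change was -1.01 ± 0.35 (SE; unadjusted p = 0.0421, limma adjusted p = 0.788). Its neighbours Jon65Aiii and Jon65Aiv changed by -0.08 and -0.03.

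Jon65Aiv was at 14.73 and 14.58, at 14.66 and 14.58 and at 14.42 and 14.17, a narrow range at the end of the scale where differences may be compressed. Jon99Fi was high on 2 arrays of different groups, unchallenged replicate 1 at 4.32 and F3 without past exposure at 5.13, and between 2.91 and 3.15 on the other 4. Its change of -0.55 with G418 therefore rests on unchallenged replicate 1. The Jonah gene that stood highest over the unchallenged level, Jon66Cii, changed by 0.27 ± 0.15 (SE), with both G418 arrays above both unchallenged arrays.

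The Ser serine proteases were dim on all arrays and changed by -0.22 to 0.14. Ser12 was at 3.96 and 3.75 on the unchallenged arrays, at 3.84 and 3.43 on the G418 arrays and at 3.77 and 3.40 on the F3 arrays. Ser6 was at 3.96 and 3.75, at 3.99 and 3.98 and at 3.67 and 3.76, and Ser8 lay between 3.995 and 4.44 on all arrays. Amyrel, an amylase-related gene, was at 3.93 and 3.95, at 4.25 and 4.05 and at 4.12 and 4.19, a change of 0.21 ± 0.15 (SE). The probe set shared by the starch-digesting amylase genes Amy-p and Amy-d was at 6.16 and 5.55 on the unchallenged arrays, at 6.79 and 5.97 on the G418 arrays and at 5.89 and 5.83 on the F3 arrays. Its change of 0.53 ± 0.38 (SE, limma adjusted p = 0.788) came with overlapping groups.

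Among aspartic proteases, Bace was at 5.11 and 4.06 on the unchallenged arrays, at 7.47 and 5.11 on the G418 arrays and at 4.49 and 4.77 on the F3 arrays. G418 replicate 1 stood apart from the other 5 arrays, and G418 replicate 2 did not exceed unchallenged replicate 1. The change of 1.70 ± 0.90 (SE, limma adjusted p = 0.788) was 0.52 without G418 replicate 1. cathD, which encodes lysosomal cathepsin D, was at 13.67 and 13.63, at 13.39 and 13.52 and at 13.63 and 13.28. Its range over the 6 arrays was 0.39, and its change with G418 was -0.19 ± 0.14 (SE).

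LysP, a lysozyme gene known from the adult salivary gland, was at 5.92 and 4.16 on the unchallenged arrays, at 7.48 and 4.15 on the G418 arrays and at 3.99 and 4.53 on the F3 arrays. As with Bace, G418 replicate 1 was the highest array and unchallenged replicate 1 the next. Among the salivary gland markers, the new glue gene ng3, named after its values were seen, was at 7.92 and 5.02, at 12.25 and 5.38 and at 5.20 and 5.31, and ng1, named likewise, was at 10.02 on G418 replicate 1 and between 3.11 and 5.23 elsewhere. The glue genes ran otherwise: Sgs3 was at 8.70 and 13.03 on the unchallenged arrays and at 14.43 and 13.72 on the G418 arrays, so it was high on both second replicates, where LysP was low. The part of salivary gland RNA in the values of LysP and Bace was not tested.

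LysS, a lysozyme gene of the larval gut, was at 14.03 and 12.23 on the unchallenged arrays, at 13.25 and 11.99 on the G418 arrays and at 12.15 and 12.40 on the F3 arrays. First replicates stood 1.79 and 1.26 above second replicates, more than the change of -0.51 ± 0.77 (SE) between the groups. LysX lay between 10.62 and 11.20 on these 4 arrays and changed by 0.27.

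Among the alpha-mannosidases, which trim mannose from glycoproteins, LManI and LManII varied and the other 4 stayed flat. LManI was at 7.63 and 5.53 on the unchallenged arrays, at 6.52 and 7.54 on the G418 arrays and at 4.80 and 5.08 on the F3 arrays. LManII was at 9.39 and 8.11, at 8.75 and 9.47 and at 6.30 and 6.45. For both neighbours the 2 F3 arrays were the lowest, and unchallenged replicate 1 and G418 replicate 2 the highest. The summed signal of the fat body markers, given above, was likewise highest on those 2 arrays and lowest on the F3 arrays. Between the F3 arrays it went from 9.81 without to 13.57 with past exposure, where LManI and LManII differed by 0.28 and 0.15. The part of fat body RNA in the values of LManI and LManII was not tested. LManIII, LManIV, LManV and LManVI ranged over 0.21 to 0.47 across the 6 arrays.

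First replicates were the higher ones for most members, whatever the challenge. Unchallenged replicate 1 was above replicate 2 for 38 of 43 members (49.5% of all genes) and G418 replicate 1 above replicate 2 for 34 (45.6% of all genes). Both held for 30 members, and for 24 of the 26 serine proteases, where 30.6% of all genes showed it. A gap of 2-fold or more separated the unchallenged replicates at 11 members, all lower on replicate 2, and the G418 replicates at 7, against 8.56% and 4% of all genes. The labels do not say that a replicate number marks a shared day or batch.

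The second comparison asked whether F3 descendants of an exposed F1 generation differed from F3 larvae of unexposed descent. Each has a single array, so there is no test. The serine proteases stood lower with past exposure: 24 of 26 were lower, all 13 Jonah proteases and 8 of 9 trypsins among them. Over the 43 members 33 were lower, where 46.8% of all genes were, and the median log2 difference was -0.15 against 0.02 over all genes. At least 2-fold lower were 9 members (20.9%, against 1.11% of all genes), and 0 were at least 2-fold higher (0.434% of all genes). Of the 28 members at or above the median mean, 8 were at least 2-fold lower, against 1.52% of all genes at or above it. Those genes were not matched to the members in brightness.

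The largest differences were in the 2 lipases that were also low with G418. mag differed by -2.27, a 4.84-fold lower level, and Lip3 by -2.15, a 4.45-fold lower level. For both, the F3 array without past exposure was itself below both unchallenged arrays. There mag was at 7.26, against 10.82 and 9.68, and Lip3 at 7.31, against 8.93 and 7.999. A low level of these lipases was thus also seen with neither G418 nor past exposure. Jon99Fi differed by -1.98, from 5.13 to 3.15, and was also between 2.91 and 3.08 on unchallenged replicate 2 and both G418 arrays. etaTry differed by -1.61, from 6.38 to 4.76.

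The other 5 members beyond 2-fold were trypsins and Jonah proteases. alphaTry went from 12.81 to 11.49, against 13.71 and 13.07 on the unchallenged and 13.84 and 13.46 on the G418 arrays. epsilonTry went from 13.58 to 12.57, betaTry from 13.99 to 12.97, Jon25Bii from 13.61 to 12.60 and Jon65Aii from 6.26 to 5.13. For all 5 the array with past exposure lay below each of the other arrays. betaTry, epsilonTry and Jon25Bii were at the 2-fold limit, with differences of -1.02, -1.01 and -1.01, and Jon25Bi and thetaTry lay just outside it at -0.95 and -0.94.

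The size of these differences was set beside the gap between replicate arrays. For 15 members the F3 array with past exposure was lower by more than the replicates of either group differed (34.9%, against 7.88% of all genes). They were 8 Jonah proteases (Jon25Bi, Jon25Bii, Jon65Aii, Jon65Aiii, Jon65Aiv, Jon74E, Jon99Ci and Jon99Fi), 4 trypsins (alphaTry, betaTry, epsilonTry and etaTry), Lip3, cathD and LysX. mag was not among them, since its G418 replicates differed by -3.56. Of the 9 members beyond 2-fold, 8 exceeded both replicate gaps, but 4 of the 9 were also 2-fold apart between the unchallenged replicates.

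**Figure D4:**
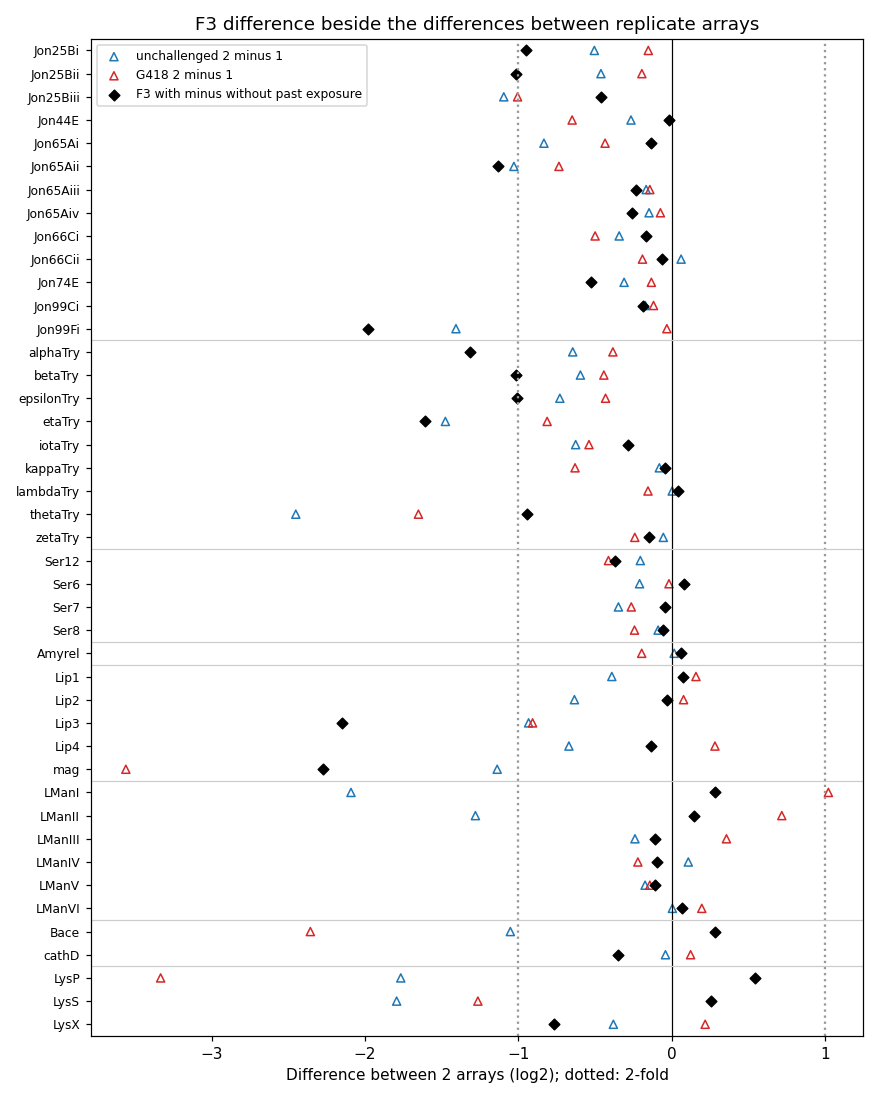
Difference between 2 arrays (log2) for each member: the F3 array with minus the one without past exposure (black diamonds), and replicate 2 minus replicate 1 of the unchallenged (blue) and G418 (red) groups. Dotted lines mark 2-fold; 9 diamonds lie at or beyond the left line and 0 at the right one, and the triangles of mag, thetaTry, LysP and Bace reach farther than any of their diamonds.

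Across all arrays, the F3 array with past exposure was the lowest of the 6 for 22 members (51.2%, against 10.9% of all genes), a pattern named after the values were seen. It held for 19 of the 28 members at or above the median mean, against 11.6% of all genes at or above that median. Both F3 arrays lay below the other 4 for 14 members, against 7.13% of all genes. All 5 measured fat body markers were higher with past exposure. So were all 7 haemocyte markers (10.04 without and 10.96 with it in summed signal) and all 7 muscle markers (12.59 and 12.96). Other lists were mixed: 4 salivary gland markers were higher and 7 lower, and 6 nervous tissue markers higher and 3 lower. Of 7 measured midgut stem and enteroendocrine markers, 3 were higher and 4 lower. Their summed signal was 8.94 without and 8.78 with past exposure, and at least 9.59 on every array outside F3. The foregut markers stood at 13.38 and 13.53. The part of tissue makeup in the F3 differences was not tested.

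Outside the Jonah proteases, the trypsins, mag and Lip3, every member differed by less than 2-fold between the F3 arrays. The 4 Ser proteases differed by -0.37 to 0.08, the 6 alpha-mannosidases by -0.11 to 0.28 and Amyrel by 0.06. Lip1, Lip2 and Lip4 differed by -0.14 to 0.07. LysS and LysP were higher with past exposure by 0.25 and 0.54, and LysX lower by a log2 difference of -0.77.

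Other hydrolases and lumen proteins of the gut were followed through a list of 33 genes, of which 26 were measured. With G418 13 stood higher and 13 lower, 0 passed limma's test, and the median change was -0.03. At an unadjusted p under 0.05 were the beta-galactosidase genes Ect3 and Gal and the neprilysin metalloprotease gene Nep1, at 0.81, -0.70 and -0.79 (limma). On the F3 arrays this list moved the same way as the members. With past exposure 7 were higher and 19 lower, where 46.8% of all genes were lower, and the median difference was -0.09. At least 2-fold lower were 2 (7.69%, against 1.11% of all genes). The F3 array with past exposure was the lowest of the 6 for 9 of them (34.6%, against 10.9%).

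Regulators of digestive enzyme genes were followed in the same way. Of 22 listed 20 were measured, with 12 higher and 8 lower with G418, 0 at an unadjusted p under 0.05 in limma and a median change of 0.01. GATAe, a GATA factor that maintains the midgut, was between 8.46 and 9.19 on all arrays, and the nuclear receptor gene Hr96, which controls mag in the fly gut, between 7.90 and 8.40. mag itself ranged over 5.84 on the log2 scale. The part of Hr96 in the values of mag was not tested. The 2 regulators with the smallest p were put, an activin receptor gene at -0.30, and bigmax, the partner of the sugar sensor Mondo, at 0.30. Some regulators varied more than GATAe and Hr96: daw ranged over 2.79, cad over 2.32 and sug over 2.01. On the F3 arrays the list did not move as the members did. With past exposure 12 regulators were higher and 8 lower, with a median difference of 0.04. The F3 array with past exposure was the lowest of the 6 for 1 regulator (5.0%, against 10.9% of all genes).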

How the data were processed

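Total RNA of the larval proventriculus was measured on 6 arrays. The deposited log2 values came from RMA, run by the authors in Affymetrix Expression Console according to the submitters' processing notes. Neither the version nor the set of arrays normalized in one run is given in the sources used here. Of 18952 probe sets, 183 controls were left out. In total 13647 had 1 gene symbol, 402 several and 4720 none. Symbols were updated through gene identifiers in a RefSeq table (Release 6), in which all 43 members matched and 0 changed name. No sequences were used, and the files name no genome build, so no coordinates are printed.

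The unchallenged and G418 arrays were compared with limma 3.58.1 (lmFit and eBayes, R 4.3.3), and p-values were adjusted by Benjamini-Hochberg over all 18769 probe sets (threshold 0.05). The procedure was also run on simulated arrays with independent noise drawn from limma's own variance model. Such a run cannot show how the test behaves on the real arrays. The F3 arrays were only described. Gene lists are given by counts and medians. Members, lists and rules were chosen with earlier results of these data known. Full values were given for the 2 members of each family with the largest G418 change, its member with the highest mean, the 5 smallest p and the 4 largest F3 differences; from other lists, genes with p under 0.05 or the 2 smallest. Others were chosen after their values were seen. Arrays give no counts, so their number limits the precision.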

Additional observations from a re-analysis of the deposited data

How the results depend on the processing

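No member passed limma's threshold under any alternative tried: the replicate block, a variance prior with trend, leaving out each of the 4 arrays, only the brighter probe sets (mean at or above the median), a further quantile normalization, median centring, or adding the shared amylase probe set. Over all probe sets the count was 0, 1 with the trend, where the called probe set was no member, and from 0 to 251 with 1 array left out, with 251 without unchallenged replicate 1 and 4 without unchallenged replicate 2. A group left with 1 array is assumed to vary like the other group. With the replicate number as a block 0 members were called, and 6 instead of 2 had an unadjusted p under 0.05. Deviations of same-numbered arrays correlated at 0.315 over all probe sets and 0.414 over the members. With 2 pairs only and no label that ties the numbers to a shared source, they are not taken to pair the arrays. The count of members higher with G418 was 27, from 13 to 35 with 1 array left out, and 17 over the 28 members at or above the median mean, where fewer members were counted. The median change lay between -0.09 and 0.26 with 1 array left out. In F3, 9 members were beyond 2-fold, 8 after quantile normalization and 7 after median centring, with members that lie at the limit. Averaging over a gene's probe sets changed nothing, since each member has 1.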

Other observations

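Some genes of the gut that are not in the set, named after their values were seen, were also lower on the F3 array with past exposure. Npc2e and Npc2c, which encode secreted lipid-binding proteins, were at 7.70 and 6.18 without past exposure and at 5.63 and 4.23 with it. yip7, a serine protease gene, was at 13.58 and 12.81, and between 14.08 and 14.42 on the first 4 arrays. Phae1, another serine protease gene, hardly differed, at 11.37 and 11.34.

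The homeobox gene cad, active in the posterior gut of flies, was high on the same 2 arrays as Jon99Fi. It was at 4.85 on unchallenged replicate 1 and at 5.84 on F3 without past exposure, and between 3.52 and 3.70 on the other 4 arrays. Both genes were dim, with means over the 6 arrays of 4.20 (cad) and 3.61 (Jon99Fi), below the median of 4.98 over all probe sets. cad was named after its values were seen, and a link between these genes was not tested. sug, a zinc finger gene induced by dietary sugar, was at 9.16 and 7.87 on the unchallenged arrays, at 9.67 and 8.92 on the G418 arrays and at 8.20 and 7.65 on the F3 arrays. G418 replicate 1 was thus the highest and F3 with past exposure the lowest. The same held for etaTry and for other members, among them alphaTry, kappaTry, iotaTry, Jon74E and Jon25Biii. A link between sug and these genes was not tested.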
